A study of Mus musculus with 24 samples.

Results

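A set of 10 genes that low oxygen induces, or that carry out or steer glycolysis, was followed through sorted lymphocytes of the inflamed mouse colon. The genes were listed by symbol: Hilpda, Egln3, Slc2a1, Pfkfb3, Pfkfb4, Pgk1, Ldha, Bnip3, Ndrg1 and Vegfa. All 10 were found among the 27179 gene identifiers of the count table. RNA had been sequenced from 3 colonic lamina propria populations of each of 8 mice. These were group 2 innate lymphoid cells (ILC2) positive for Nmur1-eGFP, CD4 T cells positive for it (NMUR1+ below) and CD4 T cells negative for it (NMUR1- below). NMU mice, numbered 1 to 4, had received the neuropeptide neuromedin U by intraperitoneal injection every other day, and PBS mice, numbered 5 to 8, had received phosphate-buffered saline instead. Every mouse carried the Nmur1 iCre-eGFP reporter allele and had taken the colon irritant dextran sulfate sodium (DSS) at 3% in its water for 5 days, followed by plain water for 3 days. No group without DSS and none without the receptor is part of the comparisons, and age is not given in the labels. The 24 libraries thus form 6 groups of 4, although the series' design text speaks of 3 mice per treatment. Sorting, per the labels, took ILC2 as CD45+ Lin- CD90.2+ CD127+ KLRG1+ cells and CD4 T cells as CD45+ CD3+ CD5+ CD4+ cells.

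Cells read oxygen through hypoxia-inducible factors (HIF), whose alpha subunits are marked for destruction by prolyl hydroxylases while oxygen is present. When oxygen falls, HIF-1 alpha or HIF-2 alpha pairs with ARNT and binds DNA at short sites with the letters ACGTG or GCGTG. The targets bring in glucose, speed glycolysis, turn pyruvate into lactate, remove mitochondria and store lipid. The colon surface is known as a tissue of low oxygen, and inflammation is known to deepen this. Activated lymphocytes also switch on glycolysis through HIF-1 alpha and Myc when oxygen is plentiful, so these genes are read in immunology both as oxygen and as activation markers.

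Promoter windows, which run from 250 bases before to 50 bases after a transcription start, were looked up in a RefSeq table of build GRCm38.p6, the source of all gene coordinates below. They are shown because the members with the clearest differences between populations can be compared letter by letter at their starts. The table had 13 windows for 9 of the 10 members, and Ndrg1 had no entry. Capitals mark ACGTG or GCGTG on either strand, and the reverse strand therefore shows as CACGT or CACGC. Overlapping matches form longer capital runs. Hilpda, Egln3 and Slc2a1 were highest in ILC2, Pgk1 was lowest there, and Pfkfb4 in ILC2 was almost absent in NMU mice and at its highest group mean in PBS mice. The windows lie at chr6:29272376-29272675 on the plus strand for Hilpda (the second of its 2 windows), chr12:54203825-54204124 on the minus strand for Egln3, chr4:119108495-119108794 on the plus strand for Slc2a1, chrX:106186850-106187149 on the plus strand for Pgk1 and chr9:108991652-108991951 on the plus strand for Pfkfb4. The Pfkfb4 window starts inside the annotated gene, which begins at base 108988272.
Hilpda: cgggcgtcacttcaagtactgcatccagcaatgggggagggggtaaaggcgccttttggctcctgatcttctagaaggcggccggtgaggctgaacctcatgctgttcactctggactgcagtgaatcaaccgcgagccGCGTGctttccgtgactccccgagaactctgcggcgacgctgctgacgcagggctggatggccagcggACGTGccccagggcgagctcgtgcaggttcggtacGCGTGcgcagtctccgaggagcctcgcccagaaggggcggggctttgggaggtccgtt
Egln3: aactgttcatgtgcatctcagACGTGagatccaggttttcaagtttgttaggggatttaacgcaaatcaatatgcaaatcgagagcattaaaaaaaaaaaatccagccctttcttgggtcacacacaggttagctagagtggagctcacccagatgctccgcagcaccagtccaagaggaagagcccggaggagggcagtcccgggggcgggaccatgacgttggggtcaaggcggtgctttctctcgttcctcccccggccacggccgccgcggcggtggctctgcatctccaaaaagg
Slc2a1: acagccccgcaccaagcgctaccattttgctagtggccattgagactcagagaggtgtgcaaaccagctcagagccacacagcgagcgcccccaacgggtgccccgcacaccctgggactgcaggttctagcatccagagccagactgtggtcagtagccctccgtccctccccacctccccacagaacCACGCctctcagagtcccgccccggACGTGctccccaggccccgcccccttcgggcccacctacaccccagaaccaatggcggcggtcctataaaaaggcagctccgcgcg
Pgk1: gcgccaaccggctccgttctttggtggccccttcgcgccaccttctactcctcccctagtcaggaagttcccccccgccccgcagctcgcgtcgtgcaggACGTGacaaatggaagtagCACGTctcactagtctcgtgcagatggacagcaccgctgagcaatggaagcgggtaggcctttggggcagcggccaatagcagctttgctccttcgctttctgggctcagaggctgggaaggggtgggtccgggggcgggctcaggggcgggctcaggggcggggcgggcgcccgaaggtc
Pfkfb4: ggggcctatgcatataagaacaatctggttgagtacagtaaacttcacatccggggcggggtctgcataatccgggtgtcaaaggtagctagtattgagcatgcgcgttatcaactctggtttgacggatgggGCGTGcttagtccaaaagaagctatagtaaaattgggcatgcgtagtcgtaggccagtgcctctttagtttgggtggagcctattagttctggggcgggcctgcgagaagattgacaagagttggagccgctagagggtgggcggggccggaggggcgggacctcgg
Counted from the start, the Hilpda window holds 1 ACGTG at position -43 and 2 GCGTG. Slc2a1 has 1 ACGTG at position -36 and 1 GCGTG on the reverse strand, Egln3 has 1 ACGTG at position -229, Pgk1 has 2 ACGTG, and Pfkfb4 has 1 GCGTG. Of all 32851 windows in the table, 43.8% hold at least 1 of these motifs on either strand, 19.6% hold ACGTG and 32.4% hold GCGTG. Among the members' 13 windows 12 hold either motif, 9 hold ACGTG and 9 hold GCGTG. The 2 Hilpda windows overlap and share a GCGTG, which counts in both. The members were listed as genes that low oxygen induces or that act in glycolysis, so these shares are no test of the motif. A match is a description of the letters, and the motif was present in windows of genes that were high and of genes that were low in ILC2.

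The libraries held 8485266 to 17854961 counts each. Defining markers separated the populations as labelled, apart from an overlap of Nmur1 between the T cell populations. The summed level of 5 CD4 T cell markers (Cd3e, Cd3d, Cd4, Cd5, Trac) was 5.44 to 38.0 CPM in ILC2 libraries, against 3185 to 4505 CPM in T cell libraries. CPM are counts scaled to the library's total after trimmed-mean (TMM) scaling between libraries. Of 6 ILC2 markers, Gata3 and Il5 among them, 4 were higher in ILC2 than in NMUR1+ cells, 6 were higher in ILC2 than in NMUR1- cells and 5 were higher in NMUR1+ than in NMUR1- cells. Nmur1, whose reporter defined the sort, stood at 234 CPM in ILC2, against 41.2 CPM in NMUR1+ and 4.37 CPM in NMUR1- T cells. RNA of other cells was present as well. Immunoglobulin genes took 0.024% to 30.4% of a library's counts, and in NMUR1+ cells of mice 1, 4, 5 and 7 they took over 20%. Reads were amplified without molecular tags, so counting intervals cover counting error only. In bulk libraries, fewer cells with an RNA and less of it per cell cannot be told apart.

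**Figure D1:**
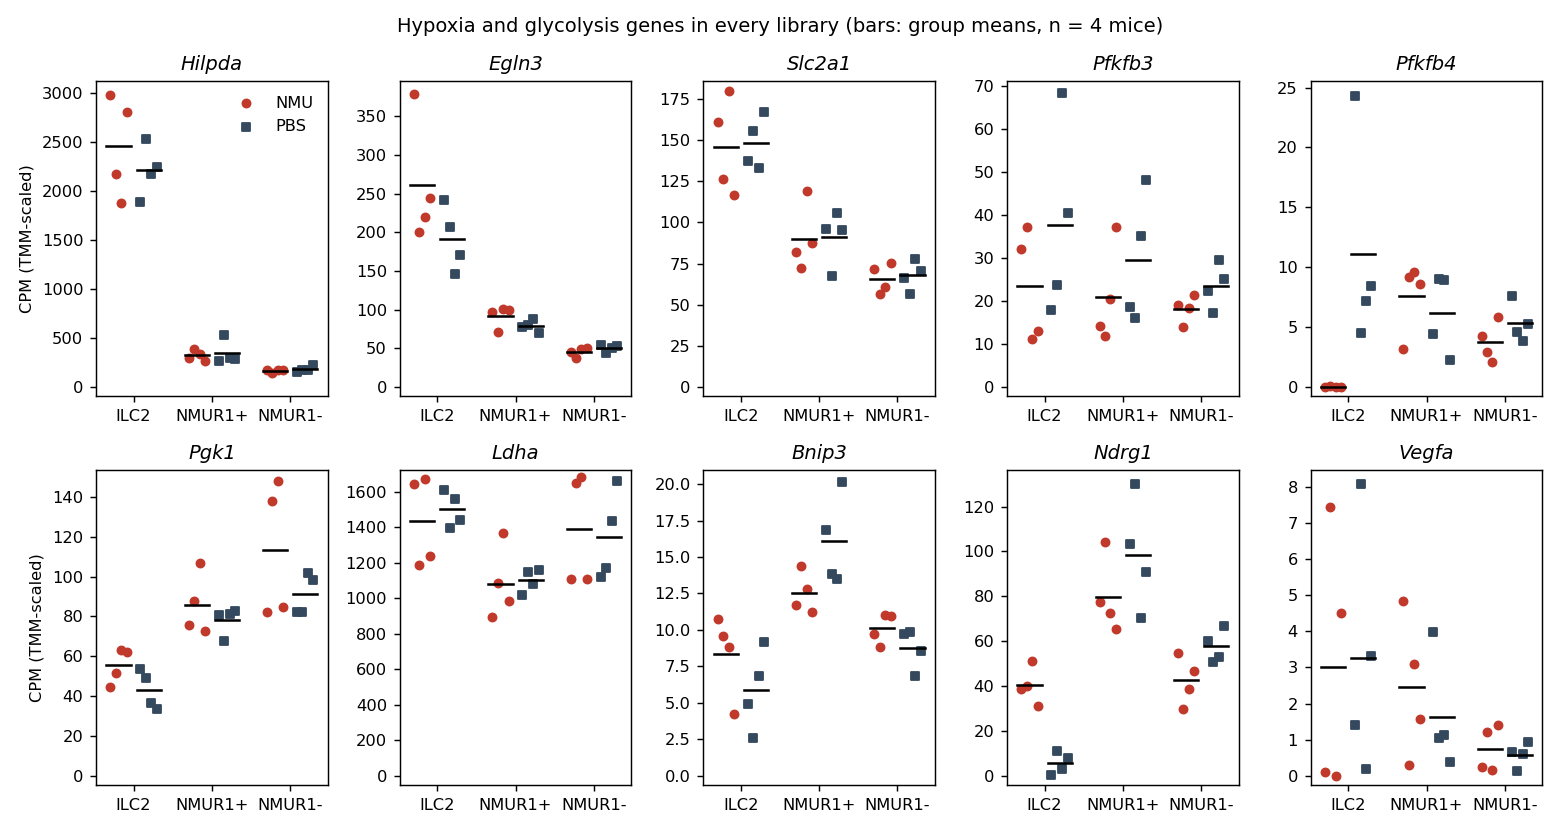
Level of each member in all 24 libraries, in TMM-scaled CPM, on a linear axis for each gene. Red circles are NMU mice, dark squares PBS mice and black bars group means of 4 mice; Hilpda, Egln3 and Slc2a1 descend from ILC2 through NMUR1+ to NMUR1-, Ndrg1 of ILC2 is split by treatment, and Pfkfb4 sits at 0 or close to it in all 4 NMU ILC2 libraries.

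Compared per length of transcript, Hilpda was the most abundant member in ILC2 and Ldha in NMUR1- T cells. In CPM per kilobase of merged exons, Hilpda averaged 2120 ± 367 in ILC2, followed by Ldha with 444 ± 55.5, Egln3 with 84.8 ± 26.3, Slc2a1 with 41.9 ± 6.28 and Pgk1 with 22.0 ± 4.88 (mean ± SD, n = 8 libraries). The other 5 averaged 0.730 to 4.04 CPM per kilobase there, with Vegfa lowest and Pfkfb3 highest. In NMUR1+ cells Ldha, at 329.8 ± 42.7, and Hilpda, at 304 ± 82.1, lay within their spread of each other. NMUR1- cells gave another order by the same measure, with Ldha at 413 ± 81.1, Hilpda at 157 ± 23.0, Pgk1 at 45.5 ± 11.8, Slc2a1 at 19.1 ± 2.39 and Egln3 at 18.0 ± 2.02 CPM per kilobase. Slc2a1 and Egln3 lie within their spread of each other in NMUR1- cells, as do Pfkfb3, Ndrg1 and Bnip3 in ILC2. Exon lengths are those of GENCODE vM21 and may differ from the annotation behind the counts.

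The first question is how the populations differ over both treatments. Hilpda, Egln3 and Slc2a1 were higher in ILC2 than in both T cell populations and higher in NMUR1+ than in NMUR1- T cells. Pgk1 and Ndrg1 were lower in ILC2 than in both. For Ndrg1 this is an average, since ILC2 of NMU mice lay near NMUR1- cells and ILC2 of PBS mice far below, as given below. Pfkfb4 had a negative fitted difference against both that joins opposite treatment groups, as given below. Bnip3 was lower and Ldha higher in ILC2 than in NMUR1+ cells, and Pfkfb3 and Vegfa passed no test. With the edgeR quasi-likelihood test and a Benjamini-Hochberg adjusted p under 0.05, 4 members were higher and 4 lower in ILC2 than in NMUR1+ cells, where 38.6% of 13509 genes passed. Against NMUR1- cells 3 were higher and 3 lower, where 40.5% passed. Both counts of lower members include Pfkfb4. NMUR1+ exceeded NMUR1- cells for 3 members and fell below them for none, where 8.31% passed. The median log2 difference of the 10 members was 0.34, 0.31 and 0.60 in these comparisons, in the order given, against -0.10, -0.12 and -0.01 over all genes tested. The 3 comparisons share libraries, and the 3 populations of a mouse share the animal.

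**Figure D2:**
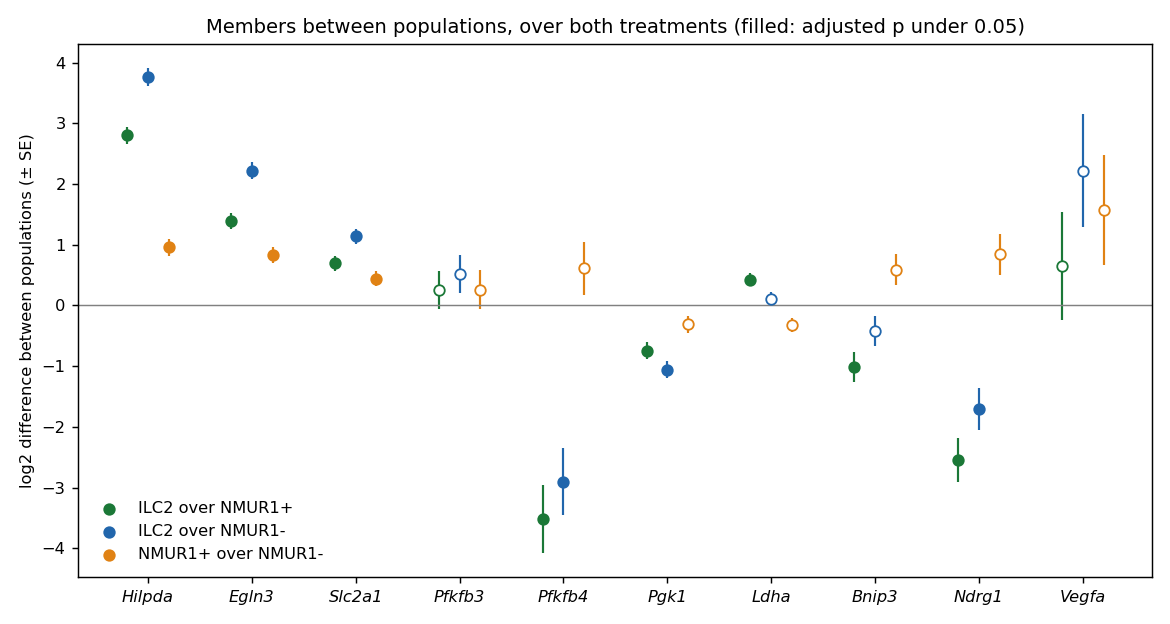
Log2 difference between populations for each member, averaged over both treatments, with SE bars from the edgeR fit of 24 libraries. Filled points have an adjusted p under 0.05. Hilpda reaches 3.76 in ILC2 over NMUR1-, while Ndrg1 lies at -2.55 in ILC2 over NMUR1+. The Pfkfb4 values average NMU ILC2 near 0 with PBS ILC2, and the Ndrg1 values average NMU ILC2 with much lower PBS ILC2.

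Hilpda encodes a lipid droplet protein that restrains triglyceride breakdown, and it spans bases 29272488 to 29275449 of chromosome 6. In ILC2 it had 2983, 2178, 1882 and 2813 CPM in NMU mice 1 to 4, against 1893, 2535, 2175 and 2245 CPM in PBS mice 5 to 8. NMUR1+ cells had 297, 390.4, 342 and 264 CPM in NMU mice, against 267, 535, 299 and 290.0 CPM in PBS mice. NMUR1- cells had 169.7, 139.8, 169.7 and 174 CPM in NMU mice, against 157.6, 173, 169 and 229 CPM in PBS mice. No library of one population overlapped with any of another, while NMU and PBS libraries overlapped within each population. ILC2 exceeded NMUR1+ cells 6.96-fold (log2 difference 2.80, SE 0.14, adjusted p = 9.34e-13) and NMUR1- cells 13.5-fold (log2 3.76, SE 0.15, adjusted p = 9.46e-15). NMUR1+ exceeded NMUR1- cells 1.94-fold (log2 0.96, SE 0.14, adjusted p = 8.04e-05). Each of these edgeR differences held its sign in 8 of 8 mice.

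Egln3, the gene of the prolyl hydroxylase PHD3, is itself a HIF target that limits HIF, and it lies at bases 54178981 to 54203874 of chromosome 12. Its levels in ILC2 were 378, 199.9, 219 and 244 CPM in NMU mice 1 to 4, against 241, 206, 145.8 and 171 CPM in PBS mice 5 to 8. Over both treatments the lowest, median and highest levels were 69.3, 84.0 and 101 CPM in NMUR1+ cells and 38.1, 49.4 and 53.8 CPM in NMUR1- cells. As for Hilpda, the libraries of the 3 populations did not overlap, and mouse 1 had the highest ILC2 level of both genes. The log2 difference was 1.39 (SE 0.13, edgeR adjusted p = 1.49e-08) for ILC2 over NMUR1+, 2.22 (SE 0.13, edgeR adjusted p = 8.38e-12) for ILC2 over NMUR1- and 0.83 (SE 0.13, edgeR adjusted p = 2.19e-04) for NMUR1+ over NMUR1-. It was the member whose profile over the 24 libraries was nearest to that of Hilpda, with a mean absolute difference of 0.259 between z-scored log2 CPM.

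Slc2a1 encodes the glucose transporter GLUT1, through which lymphocytes take up more glucose on activation, at bases 119108745 to 119137330 of chromosome 4. ILC2 had 161, 126, 179.7 and 117 CPM in NMU mice, against 137, 155, 133 and 167 CPM in PBS mice. NMUR1+ cells ranged over 67.5 to 119 CPM and NMUR1- cells over 56.3 to 77.8 CPM. ILC2 libraries lay above all NMUR1- libraries and overlapped slightly with NMUR1+ ones, and within each of the 8 mice the order was ILC2, NMUR1+, NMUR1-. The log2 difference was 0.70 (SE 0.12, edgeR adjusted p = 9.30e-05) for ILC2 over NMUR1+ and 1.14 (SE 0.12, edgeR adjusted p = 1.20e-07) for ILC2 over NMUR1-. NMUR1+ over NMUR1- gave 0.44 (SE 0.12, edgeR adjusted p = 0.0275). That last call was lost without mouse 2, 3, 5, 7 or 8 (adjusted p = 0.0574, 0.131, 0.0815, 0.0927 and 0.0806) and without the NMUR1+ libraries over 20% immunoglobulin (adjusted p = 0.179). Annotated long noncoding genes overlap Slc2a1, Pfkfb3 and Ldha, and an overlapping pseudogene lies at Bnip3; how their reads were assigned is unknown here.

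The bifunctional enzymes of the PFKFB family set the level of fructose 2,6-bisphosphate, the strongest activator of phosphofructokinase. Pfkfb3, at bases 11471430 to 11554071 of chromosome 2, had 11.1, 28.0 and 68.3 CPM (lowest, median, highest) in ILC2, 11.8, 19.6 and 48.2 CPM in NMUR1+ and 14.1, 20.2 and 29.6 CPM in NMUR1- cells, and all 3 ranges overlapped. Its edgeR adjusted p was 0.558 for ILC2 over NMUR1+, 0.206 for ILC2 over NMUR1- and 0.731 for NMUR1+ over NMUR1-. Pfkfb4 was -3.51 on the log2 scale in ILC2 relative to NMUR1+ (SE 0.56, edgeR adjusted p = 2.72e-05) and -2.90 relative to NMUR1- cells (SE 0.56, edgeR adjusted p = 2.01e-04). This average joins NMU ILC2 close to 0 with PBS ILC2, which had the highest group mean of all, 11.1 ± 8.96 CPM (SD, n = 4). On the linear scale the means over both treatments were 5.57 ± 8.34 CPM in ILC2, against 6.89 ± 3.07 CPM in NMUR1+ and 4.55 ± 1.72 CPM in NMUR1- T cells (SD, n = 8 each), so ILC2 was not below NMUR1- cells by that measure. The fitted values depend on the prior count, and 2 of 8 mice had more Pfkfb4 in ILC2 than in NMUR1+ cells and 3 of 8 more than in NMUR1- cells.

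Pgk1 and Ldha, the enzymes of the glycolytic chain in the set, differed from NMUR1+ cells in opposite directions. Pgk1, on chromosome X at bases 106187100 to 106203699, encodes the phosphoglycerate kinase that forms ATP in glycolysis. It had 44.3, 51.8, 63.2 and 62.4 CPM in ILC2 of NMU mice, against 53.8, 48.9, 36.3 and 33.3 CPM in ILC2 of PBS mice. Its range was 67.7 to 107 CPM in NMUR1+ and 82.1 to 148 CPM in NMUR1- cells, so every ILC2 library lay below every T cell library. The log2 difference was -0.74 (SE 0.14, edgeR adjusted p = 1.89e-04) for ILC2 over NMUR1+ and -1.06 (SE 0.14, edgeR adjusted p = 2.13e-06) for ILC2 over NMUR1-. Ldha, on chromosome 7 at bases 46842274 to 46855627, encodes the lactate dehydrogenase subunit that turns pyruvate into lactate. It averaged 1468 ± 184 CPM in ILC2, against 1092 ± 141 CPM in NMUR1+ T cells and 1366 ± 268 CPM in NMUR1- T cells (SD, n = 8 each). It was higher in ILC2 than in NMUR1+ cells of 8 of 8 mice (log2 0.43, SE 0.11, edgeR adjusted p = 0.00455), a call lost without the NMUR1+ libraries over 20% immunoglobulin (log2 0.30, adjusted p = 0.138). Against NMUR1- cells the log2 difference was 0.10 (edgeR adjusted p = 0.503). Named processed copies of Ldha and of Pgk1 exist in the genome, and reads shared with them make the level of both genes uncertain.

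Bnip3 encodes a mitochondrial outer membrane protein that recruits the autophagy machinery, and Ndrg1 a cytoplasmic stress-response protein induced by hypoxia. Bnip3, at bases 138890836 to 138909506 of chromosome 7, stood at 7.12 ± 2.94 CPM in ILC2, against 14.3 ± 2.91 CPM in NMUR1+ and 9.44 ± 1.38 CPM in NMUR1- T cells (SD, n = 8 each). ILC2 libraries lay below all NMUR1+ libraries (log2 -1.02, SE 0.25, edgeR adjusted p = 0.00253) and overlapped with NMUR1- ones (log2 -0.43, edgeR adjusted p = 0.184). Although no Bnip3 value of NMUR1+ cells overlapped with NMUR1- cells, that difference missed the threshold (log2 0.59, edgeR adjusted p = 0.158; DESeq2 adjusted p = 0.0493). Ndrg1 showed log2 differences of -2.55 (SE 0.36, edgeR adjusted p = 8.10e-06) for ILC2 over NMUR1+ and -1.71 (SE 0.35, edgeR adjusted p = 4.79e-04) for ILC2 over NMUR1-. Group means of Ndrg1 in NMU mice were 40.3 ± 8.22 CPM in ILC2 and 42.5 ± 10.7 CPM in NMUR1- cells (SD, n = 4), and mice 2 and 3 had more of it in ILC2. In PBS mice they were 5.66 ± 4.90 CPM in ILC2 and 57.6 ± 7.24 CPM in NMUR1- cells. NMUR1+ exceeded NMUR1- cells in 8 of 8 mice without passing (log2 0.84, edgeR adjusted p = 0.141); the difference passed without mouse 5 (adjusted p = 0.0259), with limma voom (adjusted p = 0.00284) and in a fit of the 16 T cell libraries alone (adjusted p = 9.91e-04).

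Vegfa, the ligand that drives vessel growth, lies at bases 46016993 to 46032377 of chromosome 17 and had the lowest level per length in every population. In ILC2 it had 0.0989, 7.43, 0 and 4.51 CPM in NMU mice, against 1.42, 8.08, 0.185 and 3.32 CPM in PBS mice. All T cell libraries held 2 to 42 counts of it. The ILC2 levels thus ran from near 0 to their highest values within both treatments. The log2 difference of 2.22 (SE 0.93) for ILC2 over NMUR1- had an edgeR adjusted p of 0.0592 and a DESeq2 adjusted p of 0.0206. For ILC2 over NMUR1+ it was 0.65 (edgeR adjusted p = 0.596), and the sign turned with the mouse as a replicate block (log2 -0.43) and with limma voom (log2 -0.35).

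RNA of other cells moved with the population contrasts. The summed level of 6 macrophage and monocyte markers was 22.9 to 279 CPM in NMU ILC2 and 32.4 to 638 CPM in PBS ILC2. The same sum was 1073 to 1974 CPM in NMU and 605 to 1951 CPM in PBS mice for NMUR1+ cells, and 201 to 484 CPM in NMU and 159 to 699 CPM in PBS mice for NMUR1- cells. Of these 6 markers 5 were lower in ILC2 than in NMUR1+ cells and 1 was lower than in NMUR1- cells. The 6 plasma and B cell markers were all lower in ILC2 than in NMUR1+ cells, and 3 were lower than in NMUR1- cells. The part of these cells in the members' population differences was not tested. Without the 4 NMUR1+ libraries over 20% immunoglobulin, Hilpda, Egln3, Slc2a1, Pgk1, Ndrg1, Bnip3 and Pfkfb4 still passed for ILC2 over NMUR1+ with the same sign, and Ldha did not.

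The second question is what NMU changed within each population. In ILC2, Pfkfb4 fell, the only 1 of 10 members to pass, where 74 of 11205 genes (0.66%) passed. The members' median log2 difference was 0.05, against -0.03 over all genes. In NMUR1+ cells edgeR called 0 of 10 members and 0 of 12061 genes (0%), with 0 members and 307 genes at an unadjusted p under 0.05. There DESeq2 called 2 genes and limma voom 0, and none was a member. In NMUR1- cells edgeR called 0 of the 9 members tested and 0 of 12103 genes (0%), with 1 member and 877 genes at an unadjusted p under 0.05. There DESeq2 called 21 genes and limma voom 0, and none was a member. Vegfa was too low to be tested there.

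**Figure D3:**
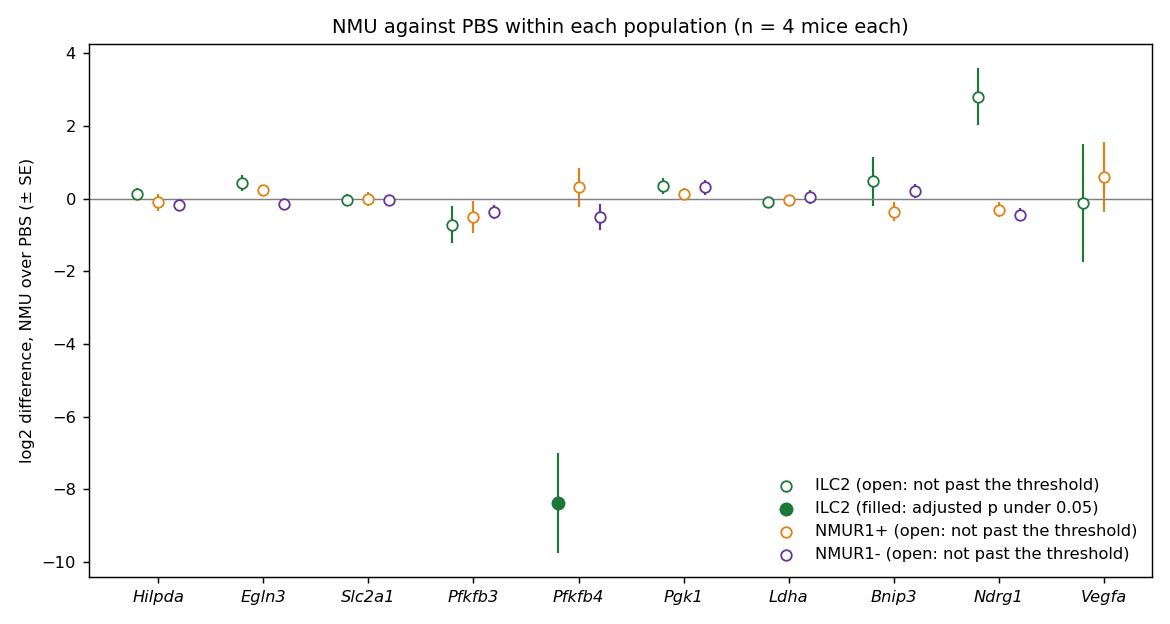
Log2 difference of each member between NMU and PBS mice (4 against 4) within ILC2, NMUR1+ and NMUR1- cells, with SE bars from edgeR. Pfkfb4 in ILC2, at -8.36, is the only filled point, Ndrg1 in ILC2 lies at 2.81 without passing, and Pfkfb3 in ILC2 is the next farthest from 0, at -0.72; Vegfa was not tested in NMUR1- cells.

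Pfkfb4, at bases 108988272 to 109032236 of chromosome 9, was almost undetected in ILC2 of NMU mice. Its counts were 0, 1, 0 and 0 in NMU mice 1 to 4, against 292, 57, 78 and 109 in PBS mice 5 to 8. In CPM these are 0, 0.113, 0 and 0 in NMU mice, against 24.3, 4.51, 7.20 and 8.41 in PBS mice. The groups did not overlap, and PBS mouse 5 stood above the other 3 PBS mice. The fitted log2 difference was -8.36 (SE 1.38, edgeR adjusted p = 0.0300), a value that depends on the prior count because 3 of the 4 NMU libraries had no count. Scaled to library size, the summed PBS level was 510 times the NMU level, with an exact 95% counting interval of 91.2 to 20194. The call did not stand in all settings: it was lost without mouse 2, 3, 4, 5, 7 or 8 (adjusted p = 0.0631, 0.0960, 0.0881, 0.119, 0.0798 and 0.0973), with limma voom (log2 -7.30, adjusted p = 0.0837) and with Jchain and Lyz2 levels as covariates (log2 -6.44, adjusted p = 0.312). Over all alternatives the fitted log2 difference ran from -10.10 to -6.44. DESeq2 gave no adjusted p for it. Jchain itself did not overlap between the ILC2 groups, with at most 925 CPM in NMU and at least 1406 CPM in PBS mice. The covariate fit therefore cannot fully part Jchain from treatment, and its calls over all genes fell from 74 to 5.

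T cells held Pfkfb4 in every library. NMUR1+ cells had 3.14, 9.20, 9.58 and 8.57 CPM in NMU mice, against 4.44, 9.03, 8.92 and 2.22 CPM in PBS mice. NMUR1- cells had 4.23, 2.89, 2.10 and 5.85 CPM in NMU mice, against 7.59, 4.63, 3.86 and 5.27 CPM in PBS mice. NMU and PBS libraries overlapped in both populations, and the lowest count was 22. The NMU effect in ILC2 minus that in NMUR1+ cells was -8.73 on the log2 scale (SE 1.13, edgeR adjusted p = 0.000373), and minus that in NMUR1- cells it was -7.92 (SE 1.12, edgeR adjusted p = 0.00101). These differences passed in 16 of 16 and in 15 of 15 alternative settings, leaving out each mouse included. The Jchain and Lyz2 covariates were not among the settings for these differences. They rest on the same ILC2 libraries as the comparison within ILC2.

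Other RNAs were also lower in ILC2 of NMU mice, and they are given here by library. The summed plasma and B cell markers were 25.1, 773, 945 and 702 CPM in NMU mice 1 to 4, against 16036, 1427, 2432 and 7042 CPM in PBS mice 5 to 8. These groups did not overlap either, and the PBS libraries had the same order as for Pfkfb4. Of the 6 markers 4 could be tested, all 4 were lower in NMU mice, and 0 passed with edgeR. The summed neutrophil markers were 0, 1.80, 0.152 and 0 CPM in NMU mice, against 6.83, 2.06, 0 and 228 CPM in PBS mice, with Ly6g at 0 in all 8 libraries. In PBS mouse 7 Pfkfb4 was at 7.20 CPM and the summed neutrophil markers at 0. The summed macrophage and monocyte markers were 22.9, 121, 279 and 22.9 CPM in NMU mice, against 638, 411, 32.4 and 165 CPM in PBS mice, and these overlapped. All 5 tested markers of that list, all 4 of the fibroblast list and all 4 of the CD4 T cell list had negative log2 differences as well, and 0 of these passed with edgeR. In NMUR1+ cells, where the plasma and B cell sum reached 96513 CPM in NMU mouse 1, Pfkfb4 was at 3.14 CPM in that library. This value and that of PBS mouse 7 come from single libraries, and the source of Pfkfb4 RNA was not tested. With the plasma cell gene Jchain and the macrophage gene Lyz2 as covariates the fitted Pfkfb4 difference was -6.44, against -8.36 without them. Fewer genes on the whole had a count in NMU ILC2 as well, 10778, 12179, 12111 and 12637 in mice 1 to 4, against 12917, 12842, 12635 and 13736 in PBS mice 5 to 8, an overlap of 1 NMU and 1 PBS library. Klrg1, a gene of the ILC2 sort gate, was higher in NMU ILC2, at 1494 ± 173 CPM, against 836 ± 130.5 CPM in PBS ILC2 (log2 0.82, edgeR adjusted p = 0.0300). The part of other cells, of library complexity and of the sorted cells' make-up in the Pfkfb4 and Ndrg1 differences was not tested further.

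Ndrg1, at bases 66929318 to 66969641 of chromosome 15, had the opposite pattern in ILC2. It had 38.8, 40.0, 51.2 and 31.3 CPM in NMU mice 1 to 4, against 0.250, 11.2, 3.14 and 8.11 CPM in PBS mice 5 to 8. The lowest NMU library was above the highest PBS library, and PBS mouse 5 held only 3 counts. The log2 difference of 2.81 (SE 0.78) did not pass within ILC2 (edgeR unadjusted p = 0.00464, adjusted p = 0.151). DESeq2 gave an adjusted p of 0.00475 and the fit of all 24 libraries one of 0.00285, while the range over all 15 alternatives was 0.00285 to 0.473. In NMUR1+ cells Ndrg1 had 77.7, 104, 72.5 and 65.2 CPM in NMU mice, against 103, 129.9, 70.3 and 90.7 CPM in PBS mice. NMUR1- cells had 54.8, 29.9, 38.6 and 46.7 CPM in NMU mice, against 60.1, 50.9, 52.9 and 66.7 CPM in PBS mice. Both T cell pairs overlapped, with log2 differences of -0.30 (edgeR adjusted p = 1.000) in NMUR1+ and -0.45 (edgeR unadjusted p = 0.0312, adjusted p = 0.645) in NMUR1- cells.

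The test of the difference between effects called Ndrg1 upward in ILC2. The NMU effect in ILC2 minus that in NMUR1+ cells was 3.13 (SE 0.70, edgeR adjusted p = 0.0407), and minus that in NMUR1- cells it was 3.26 (SE 0.70, edgeR adjusted p = 0.0349). With the mouse as a replicate block both missed the threshold, at log2 3.36 (adjusted p = 0.0643) and 3.55 (adjusted p = 0.0532). Leaving out mouse 1, 2, 3, 4, 7 or 8 also ended the first call (adjusted p = 0.130, 0.0603, 0.123, 0.102, 0.102 and 0.0923) and the second (adjusted p = 0.107, 0.0971, 0.113, 0.0913, 0.125 and 0.0969). In both differences 1 member passed upward and 1 downward, Ndrg1 and Pfkfb4, where 0.725% of 13509 genes passed for ILC2 minus NMUR1+ and 0.533% for ILC2 minus NMUR1-. For NMUR1+ minus NMUR1- edgeR called 0 members and 0 genes (0%), with 0 members and 157 genes at an unadjusted p under 0.05, while DESeq2 called 4 genes and limma voom 0, none a member. The summed level of 5 epithelial markers in ILC2 was 59.9, 33.6, 65.0 and 45.5 CPM in NMU mice. In PBS mice it was 18.7, 13.0, 19.8 and 18.5 CPM, without overlap. The single markers did not move as one. Of 3 tested, 2 had a positive and 1 a negative log2 difference, and only Epcam passed (log2 1.88, edgeR adjusted p = 0.0308). Krt8 averaged 0.232 CPM in NMU and 3.51 CPM in PBS mice, and Vil1 averaged 0.107 CPM in NMU and 0.319 CPM in PBS mice. The part of epithelial RNA in the Ndrg1 difference was not tested further.

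**Figure D4:**
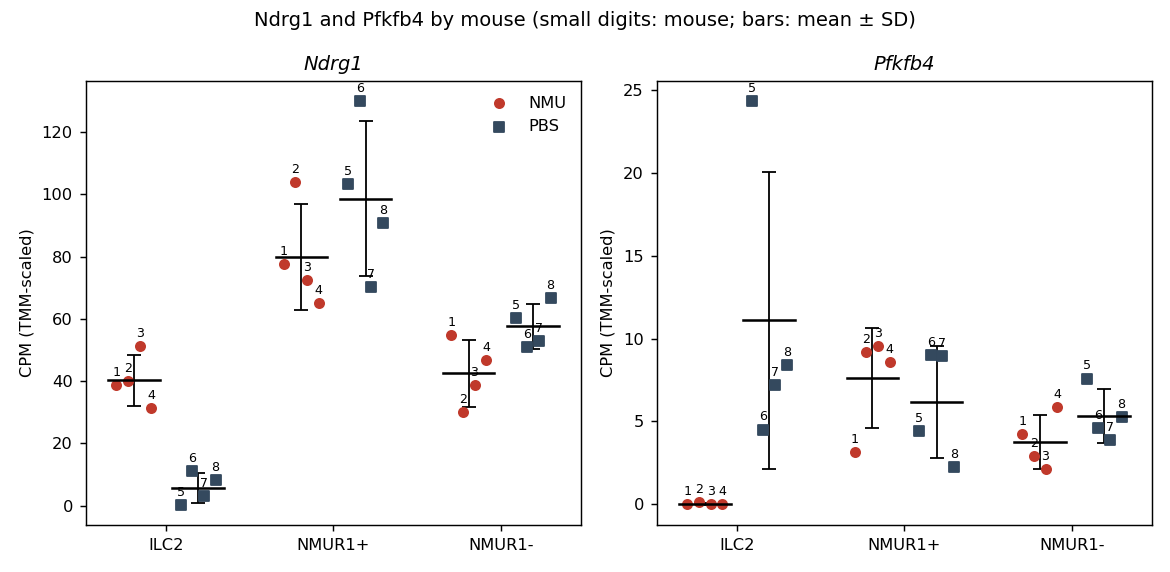
Ndrg1 (left) and Pfkfb4 (right) in CPM for every library, labelled by mouse number, with group mean and SD bars (n = 4). In ILC2 the NMU mice lie at 31.3 to 51.2 CPM of Ndrg1, above the PBS mice at 0.250 to 11.2 CPM, and at 0 to 0.113 CPM of Pfkfb4, below the PBS mice at 4.51 to 24.3 CPM; T cell groups overlap.

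For the other 8 members NMU and PBS libraries overlapped in every population. The share of all genes whose NMU and PBS libraries did not overlap was not counted. The lack of overlap of Ndrg1 and Pfkfb4 in ILC2 therefore has no background to be judged against. An unadjusted edgeR p under 0.05 in ILC2 was reached by 2 of 10 members and by 12.4% of all genes tested. In ILC2, Egln3 averaged 261 ± 80.6 CPM in NMU and 191 ± 41.7 CPM in PBS mice (log2 0.43, edgeR adjusted p = 0.474). Hilpda averaged 2464 ± 520.2 CPM in NMU and 2212 ± 263 CPM in PBS mice (log2 0.13, edgeR adjusted p = 0.817). Pgk1 had a log2 difference of 0.35 in ILC2, 0.14 in NMUR1+ and 0.31 in NMUR1- cells, positive in all 3 populations and past the threshold in none (edgeR adjusted p = 0.618, 1.000 and 0.801). Pfkfb3 had -0.72, -0.50 and -0.38 in the same order (edgeR adjusted p = 0.659, 1.000 and 0.718), negative in each and past the threshold in none. Slc2a1 lay at -0.04, -0.02 and -0.05 and Ldha at -0.09, -0.03 and 0.04 on the log2 scale in the same order, and the sign of both turned under some alternatives. Bnip3 gave 0.48, -0.36 and 0.21 (edgeR adjusted p = 0.860, 1.000 and 0.853). Egln3 was the only other member with an unadjusted p under 0.05 for a difference between effects, with 0.59 for ILC2 minus NMUR1- (edgeR unadjusted p = 0.0313, adjusted p = 0.359).

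Among the genes that run the oxygen response, the alpha subunits parted between populations. Hif1a, the gene of HIF-1 alpha, averaged 486 ± 127 CPM in ILC2, against 1333 ± 195 CPM in NMUR1+ T cells and 1680 ± 287 CPM in NMUR1- T cells (SD, n = 8 each). It was lower in ILC2 than in NMUR1+ (log2 -1.47, SE 0.13, edgeR adjusted p = 4.89e-09) and NMUR1- cells (log2 -1.81, SE 0.13, edgeR adjusted p = 1.58e-10). Epas1, the gene of HIF-2 alpha, stood at 330.1 ± 113 CPM in ILC2, against 69.1 ± 23.4 CPM in NMUR1+ and 29.4 ± 7.85 CPM in NMUR1- T cells. It was higher in ILC2 than in NMUR1+ (log2 2.25, SE 0.22, edgeR adjusted p = 2.52e-08) and NMUR1- cells (log2 3.51, SE 0.23, edgeR adjusted p = 3.37e-11), and higher in NMUR1+ than in NMUR1- cells (log2 1.25, edgeR adjusted p = 5.48e-04). Epas1 thus followed the order of Hilpda, Egln3 and Slc2a1, and Hif1a the reverse one, although its NMUR1+ and NMUR1- levels were not told apart by the test (edgeR adjusted p = 0.108). Of 13 genes for HIF subunits, hydroxylases, the ubiquitin ligase and coactivators, 1 was higher and 5 lower in ILC2 than in NMUR1+ cells, where 38.6% of all genes passed, with Rbx1 (-0.68) and Egln2 (-0.52) the next lowest on the log2 scale. Against NMUR1- cells 1 was higher and 4 lower, where 40.5% of all genes passed, with Rbx1 (-0.91) and Eloc (-0.48) next lowest. The list's median log2 differences were -0.081 and 0.0012, against -0.10 and -0.12 over all genes, and its called counts lie near the shares over all genes. Neither subunit passed between NMU and PBS mice with edgeR, with Hif1a in ILC2 at 565 ± 112 CPM in NMU and 406 ± 89.8 CPM in PBS mice (log2 0.46, adjusted p = 0.371).

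**Figure D5:**
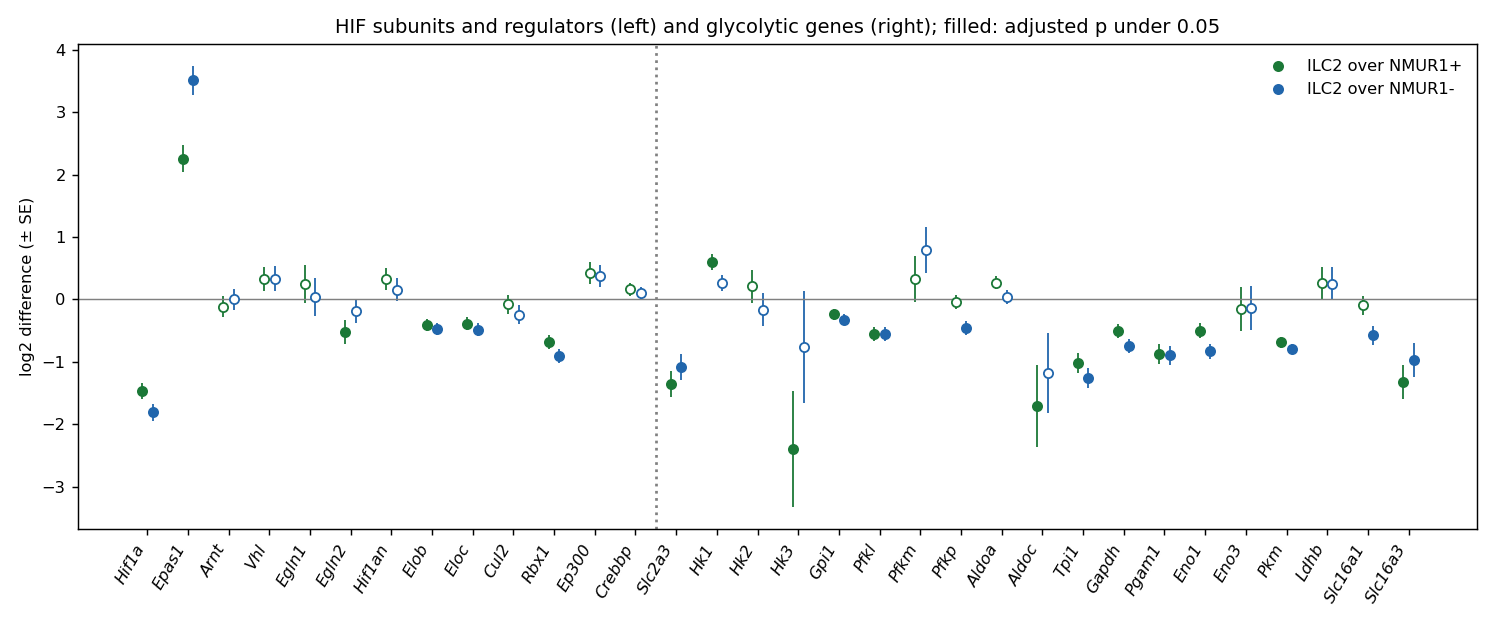
Log2 difference between ILC2 and each T cell population for the 13 HIF subunits and regulators (left of the dotted line) and the tested glycolytic genes (right), with SE bars from edgeR and filled points at an adjusted p under 0.05. Epas1 lies at 2.25 over NMUR1+ and 3.51 over NMUR1-, Hif1a at -1.47 and -1.81, and most filled glycolytic genes lie below 0.

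Most glycolytic genes that differed beside the members were lower in ILC2. Of 19 tested, 1 was higher and 11 lower in ILC2 than in NMUR1+ cells, where 38.6% of all genes passed. The median log2 difference was -0.50, against -0.10 over all genes. Hk1, a hexokinase, was the one higher (log2 0.59, edgeR adjusted p = 8.20e-04). The largest differences downward were those of Hk3 (log2 -2.40, edgeR adjusted p = 0.0441), Aldoc (log2 -1.71, edgeR adjusted p = 0.0419) and Slc2a3, the gene of the glucose transporter GLUT3 (log2 -1.35, edgeR adjusted p = 1.76e-05). Hk3 is known from myeloid cells, whose markers were also lower in ILC2 as given above. The part of myeloid RNA in the Hk3 difference was not tested. Against NMUR1- cells 0 were higher and 11 lower, where 40.5% of all genes passed. The median was -0.58, against -0.12 over all genes. Tpi1 led downward (log2 -1.27, edgeR adjusted p = 1.13e-06). Next came Slc2a3 (log2 -1.09, edgeR adjusted p = 1.76e-04) and Slc16a3, the lactate exporter MCT4 (log2 -0.98, edgeR adjusted p = 0.00609). In absolute terms Slc2a3 averaged 99.0 ± 48.8 CPM in ILC2, against 231 ± 57.7 CPM in NMUR1+ T cells and 193 ± 38.6 CPM in NMUR1- T cells, the reverse of Slc2a1 for ILC2 against T cells. NMUR1+ and NMUR1- cells differed for 1 glycolytic gene of 19, Pfkp (log2 -0.41, edgeR adjusted p = 0.0236), where 8.31% of all genes passed. Tpi1, Gapdh, Pgam1 and Eno1 have many processed copies in the mouse genome, so their levels are uncertain.

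Other known HIF targets were split in ILC2 rather than shifted one way. Against NMUR1+ cells 8 of 24 tested were higher and 6 lower, where 38.6% of all genes passed. Against NMUR1- cells 7 were higher and 7 lower, where 40.5% of all genes passed. The median log2 differences were 0.22 and -0.05, against -0.10 and -0.12 over all genes. Adm, the vessel-dilating peptide adrenomedullin, stood at 35.7 ± 24.5 CPM in ILC2, against 1.71 ± 1.46 CPM in NMUR1+ and 0.929 ± 0.767 CPM in NMUR1- T cells (log2 4.43 over NMUR1+ and 5.34 over NMUR1-, edgeR adjusted p = 1.25e-05 and 1.51e-06). The collagen prolyl hydroxylase subunits parted, with P4ha2 at log2 3.95 and 4.99 in ILC2 over NMUR1+ and over NMUR1- (edgeR adjusted p = 1.21e-05 and 8.23e-07), and P4ha1 at -1.63 and -1.38 (edgeR adjusted p = 4.32e-09 and 3.90e-08). Hmox1 (log2 -2.36) and Mxi1 (-1.14) were among the lower genes against NMUR1+ cells, and Mif (-1.22) and Tfrc (-0.93) against NMUR1- cells. Of 6 macrophage and monocyte markers, 5 were also lower in ILC2 than in NMUR1+ cells, as given above. The part of macrophage RNA in the Hmox1 difference was not tested. NMUR1+ exceeded NMUR1- cells for Plin2, which coats lipid droplets (log2 0.89), and Ero1a (0.61). NMUR1+ lay below NMUR1- cells for Cited2 (-0.73) and Mif (-0.51). Over all genes 8.31% passed in this comparison. Plin2 was lower in ILC2 than in NMUR1+ cells (log2 -1.06), the opposite of the lipid droplet gene Hilpda, a comparison picked after its value was seen.

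Relatives and partners of the members gave 2 higher and 5 lower of 17 tested in ILC2 against NMUR1+ cells, and 3 higher and 5 lower against NMUR1- cells. Over all genes 38.6% and 40.5% passed in these comparisons, so the counts lie near the background. The list's median log2 differences were -0.36 and -0.13, against -0.10 and -0.12 over all genes. Myc, the transcription factor that drives glycolytic genes in activated lymphocytes, averaged 337 ± 187 CPM in ILC2, against 139 ± 30.4 CPM in NMUR1+ T cells and 87.2 ± 17.4 CPM in NMUR1- T cells, and it passed in all 3 comparisons (log2 1.19, 1.85 and 0.66, edgeR adjusted p = 1.11e-05, 1.89e-08 and 0.0201). Vegfc, the lymphatic vessel growth factor, was higher in ILC2 at 5.92 ± 1.91 CPM, against 0.375 ± 0.713 CPM in NMUR1+ and 0.129 ± 0.309 CPM in NMUR1- T cells. Ndrg2, a paralog of Ndrg1, was lower in ILC2, with log2 differences of -3.36 over NMUR1+ and -2.74 over NMUR1- cells (edgeR adjusted p = 4.70e-04 and 0.00223). Ndrg4 and the VEGF receptor gene Flt1 were also lower in ILC2, at under 2 CPM on average in every population. Pdk2, a kinase that restrains the use of pyruvate in mitochondria, was higher in ILC2 than in NMUR1- cells (log2 1.46, edgeR adjusted p = 0.00284).

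The wider lists held 0 genes called between NMU and PBS mice by edgeR, in comparisons where few or no genes passed at all. Of 79 genes, 69 were tested in ILC2, with 0 called by edgeR, 14 at an unadjusted p under 0.05, 6 called by DESeq2 and 0 by limma voom. Among all 11205 genes tested there, edgeR called 74, 12.4% had an unadjusted p under 0.05, and DESeq2 called 472. In NMUR1+ cells edgeR called 0 of 70, with 2 at an unadjusted p under 0.05, and in NMUR1- cells 0 of 70, with 8, and neither DESeq2 nor limma voom called any. Over all genes edgeR called 0 in both, with 2.55% in NMUR1+ and 7.25% in NMUR1- cells at an unadjusted p under 0.05. For the differences between NMU effects edgeR called 0 of 73, with 10 at an unadjusted p under 0.05 for ILC2 minus NMUR1+, 14 for ILC2 minus NMUR1- and 0 for NMUR1+ minus NMUR1-. There DESeq2 called 2, 1 and 0 and limma voom none. The shares of all genes at an unadjusted p under 0.05 were 13.2%, 11.3% and 1.16%.

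The genes whose profile over the 24 libraries came nearest to the mean z-scored profile of the members, among 8085 genes of at least 10 CPM on average, were B4galt5, Arl2, Nrros, Hdc and Tgm2, with mean absolute differences of 0.470, 0.507, 0.510, 0.531 and 0.547. Within the set the members fell into loose pairs by the same measure. Hilpda and Egln3 were nearest to each other (0.259), Slc2a1 was nearest to Egln3 (0.382), and Ndrg1 and Bnip3 were nearest to each other (0.583). Pgk1 was nearest to Ndrg1 (0.680), and Pfkfb3, Pfkfb4, Ldha and Vegfa were over 0.85 away from any other member. The mean profile joins genes that were high and genes that were low in ILC2, so its nearest genes follow no single member.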

How the data were processed

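The 24 libraries were made from column-purified RNA of sorted cells with a low-input amplifying kit, per the labels' protocols. The authors deposited raw read counts per gene, per the file headers and the values, and per the submitters' processing notes reads were aligned with STAR 2.5.3 to mm10. Which program and annotation produced the counts, and whether strand was used, is not given in the sources used here. Gene IDs were named with the RefSeq table, which matched 93.0% of 27179. The members and the wider gene lists were chosen with earlier results of these data known.

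NMU was compared with PBS within the 8 libraries of each population; populations, and differences between NMU effects, were compared in 1 fit of 24 libraries in 6 groups. Each used edgeR 4.0.16 (R 4.3.3) with TMM scaling, a filter on genes under a minimum count of 10, the robust quasi-likelihood test and Benjamini-Hochberg adjustment over all genes tested, called at 0.05. CPM used TMM factors of 0.719 to 1.16. The steps were run on simulated counts, drawn independently for each library, with changes put only into genes of higher counts. The simulation therefore does not cover changes in low-count genes or libraries that share a mouse. From each wider list at most 3 called genes per direction were named, by absolute log2 difference, and Hif1a always. Of these, 1 gene is not reported here.

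Alternatives were DESeq2 1.42.0, limma voom 3.58.1, DESeq2 size factors, no filter, no immunoglobulin genes, each mouse left out, Jchain and Lyz2 as covariates (within populations only), no NMUR1+ library over 20% immunoglobulin, the libraries pooled or fewer, and the mouse as a replicate block. The numbers pair populations because the same number names the same mouse; same-mouse deviations correlated with a median r of 0.0448 (ILC2 and NMUR1+), 0.0604 (ILC2 and NMUR1-) and 0.222 (NMUR1+ and NMUR1-). Each mouse gave 1 library per population, so p-values of NMU against PBS within a population measure the spread between mice. The main fit of 24 libraries had no term for the mouse. Its p-values treat the libraries of the same mouse as independent. No replicate pair agreed within sampling noise (lowest chi-square per degree of freedom 16.55 over 36 pairs).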

Additional observations from a re-analysis of the deposited data

Results flagged for a closer look

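The NMU effect on Ndrg1 differed between ILC2 and both T cell populations, by 3.13 on the log2 scale against NMUR1+ and 3.26 against NMUR1- cells. That on Pfkfb4 differed by -8.73 against NMUR1+ and -7.92 against NMUR1- cells. These 4 differences passed the edgeR test of the difference itself (adjusted p = 0.0407, 0.0349, 0.000373 and 0.00101), and they share the 8 ILC2 libraries. Those of Ndrg1 passed in only 6 of 16 alternative settings against NMUR1+ and 6 of 15 against NMUR1- cells. Those of Pfkfb4 passed in all of them.

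Single libraries also lay apart from the other 3 of their group. In NMUR1+ cells PBS mouse 6 had 535 CPM of Hilpda and 67.7 CPM of Pgk1, the highest Hilpda and the lowest Pgk1 of that group. NMU mouse 2 had 139.8 CPM of Hilpda in NMUR1- cells and 70.5 CPM of Egln3 in NMUR1+ cells, the lowest of each group. NMU mouse 1 had 3.14 CPM of Pfkfb4 in NMUR1+ cells, the lowest of its group. In ILC2 of NMU mice the 0.113 CPM of Pfkfb4 in mouse 2 stands for 1 count, beside 0 in the others. These are 6 of 60 groups examined, and chance alone gives about 1 in 20.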

How the results depend on the processing

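The calls of NMU against PBS within ILC2, and of Ndrg1 in the differences between NMU effects, depended on processing. Calls between ILC2 and T cells mostly held. The 8 members called for ILC2 over NMUR1+ became 7, without Ldha, when the NMUR1+ libraries over 20% immunoglobulin were left out. The 6 called for ILC2 over NMUR1- became 7 with DESeq2, with Vegfa. No other setting changed these counts. With 1 member, Pfkfb4, called between NMU and PBS ILC2, limma voom and the Jchain and Lyz2 covariates gave 0, the fit of all 24 libraries 2 (with Ndrg1), and leaving out 1 mouse 0 to 1. The 3 members called between NMUR1+ and NMUR1- became 5 in the fit of 16 libraries, with Ndrg1 and Bnip3. For NMU effects in ILC2 minus NMUR1+ and minus NMUR1-, the 2 called members became 1, Pfkfb4, without the count filter, in the fit of 16 libraries and with the mouse as a replicate block, and for the first of these contrasts also without the NMUR1+ libraries over 20% immunoglobulin; leaving out 1 mouse gave 1 to 2. The replicate block changed no other call. Counts over all genes moved as well. Between NMU and PBS ILC2, 74 genes became 472 with DESeq2, 1053 in the fit of 24 libraries, 5 with the covariates and 12 to 63 without 1 mouse. For NMUR1+ over NMUR1-, 1123 became 2104 in the fit of 16 libraries, 393 without the libraries over 20% immunoglobulin and 609 to 1035 without 1 mouse. For the effects in ILC2 minus NMUR1+ and minus NMUR1-, 98 and 72 became 516 and 387 with DESeq2, 24 and 21 with limma voom, 46 and 36 with the block, 18 and 24 in the fit of 16 libraries and 30 to 106 and 20 to 83 without 1 mouse. The first of these was also 54 without the filter and 15 without the libraries over 20% immunoglobulin.

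Signs turned only for members that passed nothing in that comparison. With the covariates Hilpda gave a log2 difference of -0.20 and Vegfa 1.31 in ILC2. In NMUR1+ cells Slc2a1 gave 0.018 with limma voom and 0.23 without the libraries over 20% immunoglobulin, where Ldha gave 0.086. Vegfa in ILC2 over NMUR1+ gave -0.35 with limma voom and -0.43 with the block. Leaving out 1 mouse at a time moved Slc2a1 over -0.16 to 0.042 in ILC2, -0.18 to 0.077 in NMUR1+ and -0.12 to 0.028 in NMUR1- cells, Vegfa over -1.06 to 0.85 in ILC2, Hilpda over -0.22 to 0.18 in NMUR1+ cells, and Ldha over -0.15 to 0.051 in NMUR1+ and -0.067 to 0.16 in NMUR1- cells. The causes were not tested. Between 4 mice per treatment, low counts limit Pfkfb4 in NMU ILC2 and Vegfa everywhere.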
